A study of Homo sapiens with 8 samples.

Results

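This comparison set all 4 chromatin accessibility libraries of cells on a stiff matrix against all 4 libraries of cells on a soft matrix, with both days of culture pooled, and described it gene by gene. For each protein-coding gene, ATAC-seq peaks with their summit in the gene body or within 10 kb of it were collected, and the best rank of those peaks within each library's own list and their number were recorded. A gene was counted as separated when every stiff library differed from every soft library in the same direction. Of the 20162 protein-coding genes of the annotation, 18215 had a peak in at least 1 library. Of these, 659 were separated by best rank and 458 by number of peaks, which came to 1063 different genes.

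The cells were of the human line LX-2, made from hepatic stellate cells by immortalisation. They were seeded on polyacrylamide hydrogels with plasma fibronectin crosslinked to the surface, of about 2 kPa for the soft matrix and about 40 kPa for the stiff matrix, and were harvested after 2 days (D2) or 4 days (D4). Every combination of matrix and day had 2 replicate libraries, and the design asked which chromatin opens or closes with the stiffness of the matrix. All groups carried the same untreated line, so the values describe 1 line and not donors, and the study calls its sequencing replicates biological without stating whether these were separate cultures, so p-values measure only the spread between these libraries. In bulk material of this kind, a site open in more of the cells and a site more open in each cell cannot be told apart.

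Stellate cells are the pericytes of the liver sinusoid. In injured liver they turn into myofibroblasts that contract and lay down collagen, and a stiffer matrix is known to favour that state. Mechanical load reaches the nucleus through integrins, focal adhesions, small GTPases and actin, and acts on transcription through YAP and TEAD, through MRTF and SRF, and through AP-1, the family of FOS and JUN dimers. ATAC-seq uses the Tn5 transposase to cut accessible DNA, so that promoters and enhancers in use appear as peaks.

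The best peaks of 6 loci that the results turn on are shown here as hg19 plus strand sequence within 100 bases of the summit. By the best rank of the gene, the first 3 loci were ahead on the stiff matrix and the last 3 on the soft matrix. The soft loci were picked because they hold a match to the AP-1 motif. The CDX2 and TM4SF18 sites shown were not listed in D2 soft replicate 1, where another peak gave the rank. The GSTP1 sequence stops at the start of the transcript. Capitals mark matches to the AP-1 motif (TGACTCA or its reverse complement TGAGTCA), the TEAD motif (GGAATG or its reverse complement CATTCC) and the GC box (GGGCGG or its reverse complement CCGCCC).

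GSTP1, promoter, chr11:67351097-67351212: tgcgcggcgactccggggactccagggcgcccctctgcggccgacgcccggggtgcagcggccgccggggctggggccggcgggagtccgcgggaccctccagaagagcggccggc
DHX34, promoter, chr19:47852369-47852569: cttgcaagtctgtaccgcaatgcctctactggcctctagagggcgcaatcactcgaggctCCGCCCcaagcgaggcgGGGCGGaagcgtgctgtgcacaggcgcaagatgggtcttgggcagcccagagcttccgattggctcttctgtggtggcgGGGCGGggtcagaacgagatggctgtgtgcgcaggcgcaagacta
CDX2, intergenic, chr13:28528038-28528238: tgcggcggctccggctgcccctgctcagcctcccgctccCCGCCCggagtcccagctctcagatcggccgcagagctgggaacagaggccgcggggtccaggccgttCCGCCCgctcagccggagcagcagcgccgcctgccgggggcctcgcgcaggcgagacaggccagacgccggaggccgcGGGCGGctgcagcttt
ESYT2, intron, chr7:158611302-158611502: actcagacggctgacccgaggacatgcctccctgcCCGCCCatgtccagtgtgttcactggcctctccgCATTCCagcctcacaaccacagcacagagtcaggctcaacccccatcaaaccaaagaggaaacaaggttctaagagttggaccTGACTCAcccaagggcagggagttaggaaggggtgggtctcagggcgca
CHRM5 and AVEN, intron, chr15:34339737-34339937: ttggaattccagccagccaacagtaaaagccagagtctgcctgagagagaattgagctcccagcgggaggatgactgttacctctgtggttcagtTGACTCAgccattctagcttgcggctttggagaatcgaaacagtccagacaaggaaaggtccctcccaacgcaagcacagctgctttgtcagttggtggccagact
TM4SF18, intergenic, chr3:149057793-149057993: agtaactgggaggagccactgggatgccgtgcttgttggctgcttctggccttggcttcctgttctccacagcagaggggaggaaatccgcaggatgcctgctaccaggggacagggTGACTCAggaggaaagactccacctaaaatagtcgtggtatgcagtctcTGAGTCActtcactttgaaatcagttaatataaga

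The stiff examples ran from the GSTP1 promoter, with no match to the 3 motifs in the bases shown, to sites with 3 GC boxes each (DHX34 and CDX2). Only 116 bases of the GSTP1 window are shown, at 82.8% G and C. Its full window had 77.6%, and matches in the bases left out are not given here. The ESYT2 site also held a TEAD match and a GC box, and the TM4SF18 site a second AP-1 match. None of the other 7 soft loci with the widest rank gap held an AP-1 match in the sequence taken in this way, and neither did any of the 10 such stiff loci. Some of these sequences were cut short, at GSTP1, CZIB and POLG (stiff) and at ABCD2, PHF1 and PATE2 (soft). Matches in the bases left out were not counted here, so no contrast between the matrices is drawn. The motif shares given below use whole windows. Such matches describe the letters of these windows and do not show that a factor was bound.

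The lists held 29789 to 72840 peaks per library and 466883 in all. Their depth in reads is unknown, since the lists hold no counts. D2 soft replicate 1 stood apart as the shortest list, and the other 7 held 55754 to 72840 peaks. Of the 14 stellate cell markers, 9 had a promoter peak in all 8 libraries, among them COL1A1, PDGFRB, ACTA2, VIM, TCF21 and LHX2, while DES, which encodes desmin, had none in any. Of the rest, COL1A2 had one in 7 libraries, HAND2 in 6, COL3A1 in 2 (both soft) and LRAT in 1 (soft). The promoters of ALB, APOA1, HNF4A and TF (hepatocytes), PTPRC, CD163, VSIG4, SPI1 and CD3E (leukocytes), KRT19 and CFTR (cholangiocytes) and VWF, STAB2, LYVE1 and ERG (endothelium) had no peak in any library. Other markers of these cell types did have a promoter peak, with KRT7, MUC1, CD68 and CD14 in all 8 libraries, CYP2E1, SOX9 and KDR in 7 and ASGR1 and EPCAM in 6.

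More protein-coding genes had a peak in the stiff libraries, though the groups overlapped. A peak was present at 14009 and 16707 genes in D2 soft, 17063 and 16686 in D4 soft, 16806 and 17101 in D2 stiff and 17275 and 17507 in D4 stiff. The lowest value was that of D2 soft replicate 1, and D4 soft replicate 1 lay above D2 stiff replicate 1. The means were 17172 ± 295 (SD, n = 4) on the stiff matrix and 16116 ± 1415 (SD, n = 4) on the soft matrix, a difference of 1056 genes that missed the threshold (p = 0.0571, two-sided exact permutation test over 70 arrangements, which can give no p below 0.0286, and p = 0.0556 within days, the smallest that the 36 arrangements allow). The mean number of peaks per gene was 2.88 ± 0.188 (SD, n = 4) against 2.29 ± 0.587 (SD, n = 4), with the same exact p = 0.0571. Without D2 soft replicate 1, the differences were 354 genes and 0.299 peaks per gene (exact p = 0.143 and 0.0857). With every list cut to its best 29789 peaks, they were 118 genes and 0.0182 peaks per gene (exact p = 0.371 and 0.171).

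By best rank, 419 of the 18215 genes were better placed in every stiff library than in any soft library (2.30%), and 240 were better placed in every soft library (1.32%), which made 659 in either direction (3.62%). A gene's rank in a library is that of its best peak there, which need not be the same site in every library. A rank of 1 is the peak with the smallest p-value in its list, equal p-values share their mean rank (hence ranks that are not whole), and a gene without a peak stands behind all listed peaks. These separations are descriptions of how the genes were picked, with no test. The 419 genes rested on 327 different best peaks and the 240 genes on 210, because neighbouring genes can share a site. A peak was present in all 8 libraries for 266 of the 419 and 235 of the 240.

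The gap between the groups was small for most of these genes. It is given as the log2 of the best rank in the worse group over the worst rank in the better group, so that a gap of 1 is a factor of 2 in rank. Its median was 0.160 for stiff and 0.127 for soft genes, and it reached 2.10 and 1.16. At the edge of the rule, TTC32 was just inside on the stiff side (worst stiff rank 6807.5, best soft rank 6821) and ZHX3 just outside (1840 and 1836.5). On the soft side ITGBL1 was just inside (worst soft rank 9019, best stiff rank 9019.5) and TRIM61 just outside (30075.5 and 30055).

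The split between stiff and soft depended on the rank scale. Stiff genes were 63.6% of the separated genes by rank on p-values and 60.0% with lists of equal length (328 and 219 genes). Ranked by fold enrichment, a separate column of the lists, they were 44.6% (315 and 391 genes), and with ranks as a percent of each list 96.7% (1119 and 38 genes). Under normal scores over the 13735 genes with a peak in all 8 libraries, the split was 49.8% (250 and 252 genes). Without D2 soft replicate 1, where fewer orderings are required, it was 56.7% (736 and 561 genes). No direction over all genes is therefore drawn from the 2 counts. In 48 stiff genes (11.5% of 419) and 17 soft genes (7.08% of 240), the separation was present under all 6 of the settings tried for the rank itself and the lists (as above, equal list length, a −log10 q of at least 3, no flank, fold enrichment and percent of the list).

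**Figure D1:**
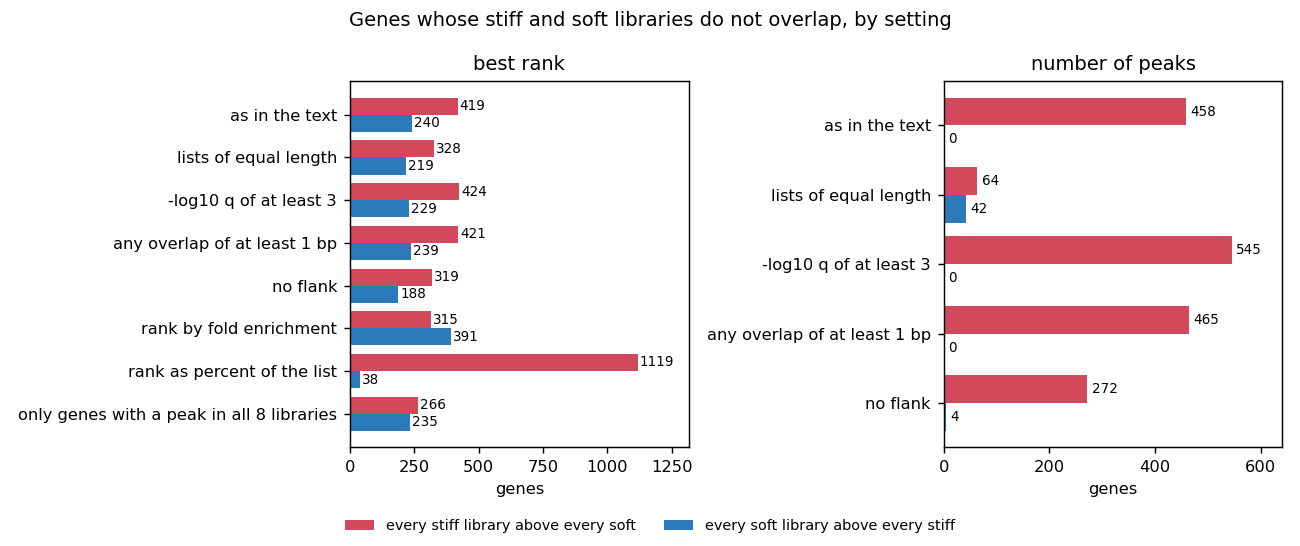
Number of genes separated by best rank and by number of peaks under each way of processing the lists, with stiff and soft genes as separate bars. By rank the main setting gave 419 stiff and 240 soft genes and fold enrichment gave 315 and 391, and by number of peaks the 458 stiff genes of the main setting became 64 stiff and 42 soft genes at equal list length.

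GSTP1 had the widest rank gap on the stiff matrix. It encodes a glutathione S-transferase that conjugates electrophiles to glutathione, and its best peak (chr11:67350932-67351612, summit 16 bases before the transcript start) was the same promoter site in each library. The ranks were 14174.5 and 3943.5 in D2 soft, 5283 and 9979 in D4 soft, 918.5 and 697.5 in D2 stiff and 904 and 210 in D4 stiff. The best soft rank, in D2 soft replicate 2, was still behind the worst stiff rank by a gap of 2.10. Fold enrichment over the local background was 15.3 ± 1.32 (SD, n = 4) on the stiff matrix and 9.60 ± 2.32 (SD, n = 4) on the soft matrix. In limma across 13735 genes, with day as a block, the stiff minus soft difference was 1.59 (SE 0.300) normal score units, with a Benjamini-Hochberg adjusted p of 0.0940, which missed the threshold of 0.05.

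Several of the other loci with a wide gap on the stiff side had their best peak at a promoter. CZIB, a small zinc-binding protein, held ranks 12536.5 and 12226.5 in D2 soft, 11045.5 and 9884.5 in D4 soft, 4019.5 and 2886.5 in D2 stiff and 3806.5 and 3396 in D4 stiff, a gap of 1.298. All 4 stiff ranks lay between 2886.5 and 4019.5 and all 4 soft ranks between 9884.5 and 12536.5. The promoter peak of DHX34, an RNA helicase of nonsense-mediated decay, is also the best peak of its neighbour C5AR2, a receptor for complement C5a, and ranked 27622 and 21853 in D2 soft, 22116 and 30311.5 in D4 soft, 10613.5 and 7721 in D2 stiff and 10148 and 8706 in D4 stiff. Its fold enrichment was 13.2 ± 1.29 on the stiff and 7.18 ± 2.44 on the soft matrix (SD, n = 4 each), a ratio of 1.84.

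POLG is the catalytic subunit of the mitochondrial DNA polymerase, and POLGARF is read from an overlapping frame of the same locus. Their shared promoter peak ranked 1901.5 and 2135.5 in D2 soft, 2089 and 3425.5 in D4 soft, 524 and 910 in D2 stiff and 193 and 949 in D4 stiff. ATP5MC1 encodes the c subunit that forms the rotor ring of mitochondrial ATP synthase, and its promoter peak ranked 505.5 and 1086 in D2 soft, 496.5 and 1000 in D4 soft, 110 and 154 in D2 stiff and 126 and 295 in D4 stiff. At both promoters every stiff rank was under 1000 and the soft ranks reached 3425.5 and 1086. ACAP2, a GTPase-activating protein for ARF6, ranked 5879 and 3308.5 in D2 soft, 4318.5 and 4438.5 in D4 soft, 1739 and 1304 in D2 stiff and 961 and 1679 in D4 stiff. SLC35E2B, whose protein belongs to a family of nucleotide-sugar transporters, ranked 7430 and 6738 in D2 soft, 5426 and 12290 in D4 soft, 2406.5 and 1344.5 in D2 stiff and 2963 and 2008 in D4 stiff. The promoter site was its best peak in 6 libraries, and in D2 soft replicate 1 and D4 soft replicate 2 the site itself stood at 9170 and 24974. At ACAP2 the promoter was the best peak in 7 libraries. The gaps of these 4 loci were 1.003, 0.75, 0.93 and 0.87.

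Other stiff genes of the widest gaps had their best peak away from a promoter. WNT3 encodes a Wnt ligand, and the peak in its intron (chr17:44841934-44842624), which is also the best peak of the neighbouring NSF, an ATPase of membrane fusion, in 6 of the libraries, ranked for WNT3 12415 and 5965 in D2 soft, 8513.5 and 9097.5 in D4 soft, 2304 and 1302 in D2 stiff and 3153.5 and 1851.5 in D4 stiff. ARHGAP40, of a family of GTPase-activating proteins, ranked 19522.5 and 16973.5 in D2 soft, 14522.5 and 16887.5 in D4 soft, 7461.5 and 7235 in D2 stiff and 7844.5 and 4193.5 in D4 stiff. D4 stiff replicate 2 was well ahead of the other stiff libraries at this gene. CDX2, the homeobox factor of intestinal epithelium, ranked 19229.5 and 19990 in D2 soft, 21684 and 27049.5 in D4 soft, 9550.5 and 8733 in D2 stiff and 11370 and 8119.5 in D4 stiff. Its intergenic site (chr13:28527815-28528242) was the best peak in 7 libraries and was not listed in D2 soft replicate 1, where another peak gave the rank. The ARHGAP40 site was the best peak in 4 libraries. Across the 10 stiff loci, the ratio of fold enrichment (stiff over soft) ran from 1.23 at ATP5MC1 to 1.84 at DHX34 where the site was listed in all 8 libraries, which left out CDX2.

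On the soft matrix, ESYT2 had the widest gap. It encodes an extended synaptotagmin that tethers the endoplasmic reticulum to the plasma membrane, and the peak is in its intron (chr7:158611061-158611857). The ranks were 184.5 and 398 in D2 soft, 335 and 535 in D4 soft, 3266 and 1281 in D2 stiff and 1197 and 1308 in D4 stiff. The soft libraries stood among their best peaks here, and D2 stiff replicate 1 was the furthest behind. Fold enrichment at the same site was 12.2 ± 0.608 on the stiff and 13.1 ± 1.07 on the soft matrix (SD, n = 4 each), a ratio of 0.932, so the difference in rank went with a small difference in enrichment.

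CHRNA1, the alpha subunit of the muscle acetylcholine receptor, ranked 2316.5 and 5527 in D2 soft, 6184 and 5593 in D4 soft, 16264.5 and 13166.5 in D2 stiff and 13875 and 12195.5 in D4 stiff. Of the soft libraries, replicate 1 of D2 was the furthest ahead. APBB2, an adapter that binds the amyloid precursor protein, ranked 2267 and 1942.5 in D2 soft, 2657 and 2739 in D4 soft, 9806 and 5319 in D2 stiff and 5889 and 13101.5 in D4 stiff. TBL1X, a subunit of the NCoR and SMRT corepressor complexes, ranked 1159.5 and 1726.5 in D2 soft, 1244 and 1545.5 in D4 soft, 7264.5 and 3217 in D2 stiff and 4512 and 4359.5 in D4 stiff. All of these sites were intronic (at APBB2 the best peak in 7 libraries, otherwise in all 8), and their fold enrichment ratios (stiff over soft) were 0.934, 0.867 and 0.934.

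The promoter of ABCD2, a peroxisomal transporter of very long chain fatty acids, was shared with C12orf40 and ranked 5230 and 7495 in D2 soft, 5474.5 and 4609 in D4 soft, 13408.5 and 14950 in D2 stiff and 16855 and 23682.5 in D4 stiff. PHF1, a Polycomb accessory protein, shared its best peaks with CUTA, and both ranked 489.5 and 1005 in D2 soft, 409.5 and 1829 in D4 soft, 4729 and 5363.5 in D2 stiff and 3239 and 4174 in D4 stiff. The promoter site was the best peak in 7 libraries and stood at 3812 in the remaining one, D4 stiff replicate 1. Soft ranks at both loci were ahead in every library, and at PHF1 the fold enrichment ratio of 0.806 was the lowest among the soft loci of widest gap with the site in all 8 libraries. CHRM5, a muscarinic acetylcholine receptor that overlaps AVEN, an inhibitor of apoptosis, ranked 7043.5 and 4096.5 in D2 soft, 3983.5 and 6969 in D4 soft, 13381.5 and 13799 in D2 stiff and 18999 and 12095.5 in D4 stiff. Their shared intronic site was the best peak of CHRM5 in 6 libraries and stood at 20734 and 22515 in D2 stiff replicate 1 and D4 stiff replicate 1.

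Deeper in the lists, the same direction was seen for TM4SF18, a tetraspan membrane protein, at 9385 and 7259.5 in D2 soft, 10094 and 7744.5 in D4 soft, 25284 and 17747.5 in D2 stiff and 20536 and 16770 in D4 stiff. Its intergenic site was the best peak in 6 libraries and was not listed in D2 soft replicate 1, where another peak gave the rank. PATE2 ranked 17196 and 22132.5 in D2 soft, 22337 and 13088.5 in D4 soft, 37047.5 and 37520.5 in D2 stiff and 39179 and 53234.5 in D4 stiff. The PATE2 site was the best peak in 6 libraries and was not listed in D2 stiff replicate 1 or D4 stiff replicate 2. GPR19, an orphan G protein-coupled receptor, ranked 13680 and 7325 in D2 soft, 12599 and 16601.5 in D4 soft, 26968 and 31095 in D2 stiff and 29084.5 and 27858.5 in D4 stiff. The best GPR19 site lies in an intron of the neighbouring CDKN1B and was its best peak in 2 libraries, with other sites in the rest. The last 3 had gaps of 0.73, 0.73 and 0.70. All 20 of these loci, 10 in each direction, remained separated in the same direction after the rank scores were centred by the GC content of the best peak. The loci were picked for the widest gaps in these same ranks, so this is no separate support. Of the genes from pathway lists given below as separated by rank, BRAF, ITGB3, SDC1, IGFBP7, CDKN1A and MKI67 were not separated after that centring. FOXF2 and IGFBP4, which lacked a peak in some soft libraries, were not among the genes centred.

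**Figure D2:**
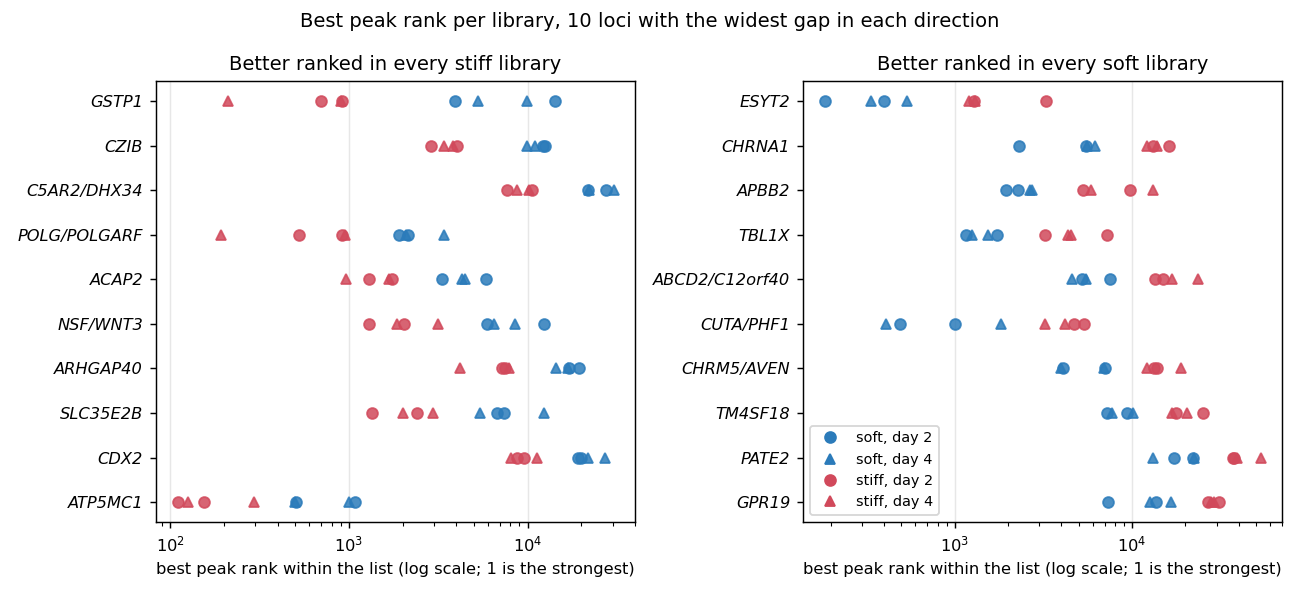
Best rank within each library's own list, on a log axis where smaller is better, for the 10 stiff and 10 soft loci with the widest gap, with 1 point per library, coloured by matrix and shaped by day (a locus of 2 genes shows the first named). At GSTP1 the stiff libraries lie between 210 and 918.5 and the soft libraries between 3943.5 and 14174.5.

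In 31 of the 18215 genes tested (7.40% of the 419 stiff genes), a peak was listed in all 4 stiff libraries and in none of the soft libraries. In no gene was the reverse seen. Stiff lists held 59277 to 72840 peaks and soft lists 29789 to 63272, so no direction is drawn from these counts. The peaks of the 31 genes were weak, with stiff ranks from 12569.5 to 71344.5 and a median of 49729. For most of them these positions lay behind the last entry of the D2 soft replicate 1 list. By mean stiff rank the best placed was ZNF229, a zinc finger protein, at 22125 and 35612 in D2 stiff and 15492 and 21072 in D4 stiff. LEFTY2, a secreted antagonist of Nodal signalling in the TGF-beta family, stood at 32144 and 12569.5 in D2 stiff and 32359.5 and 27295 in D4 stiff. HSPB9, a small heat shock protein whose peak is at the promoter of the neighbouring KAT2A, stood at 28188.5, 31585, 27090 and 23642 in the same order.

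A pair of chemokine genes belonged to this set. CCR1, a receptor for inflammatory chemokines, had its peak in an intron of CCR3, at 30258 and 46356.5 in D2 stiff and 33284.5 and 23333.5 in D4 stiff. CCL4, a chemokine that attracts leukocytes, stood at 26808 and 45369 in D2 stiff and 24332.5 and 37408.5 in D4 stiff. Of the 31 genes, 12 had a single peak in every stiff library, 8 had their best peak at a promoter, and in 15 the best peak was the same site in all 4 stiff libraries. In the other 16, different sites stood for the gene in different libraries.

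Where a peak was listed in all 8 libraries, the 2 lists of genes moved by similar steps. For the 266 stiff genes, the median best rank was 11889 and 9650 in D2 soft, 10086 and 10232 in D4 soft, 4958 and 5460 in D2 stiff and 5063 and 5069 in D4 stiff. For the 235 soft genes it was 7044 and 7858 in D2 soft, 7812 and 7261 in D4 soft, 13678 and 15071 in D2 stiff and 14735 and 14648 in D4 stiff. Both days and both replicates gave levels close to each other within a matrix, which the choice of the genes fixes in part. The same site was the best peak in all 8 libraries for 139 of 419 stiff genes (33.2%) and 117 of 240 soft genes (48.8%). At sites listed in all 8 libraries, the median ratio of fold enrichment (stiff over soft) was 1.35 for 229 stiff genes and 0.987 for 213 soft genes. Fold enrichment describes the same peaks that were ranked by p-value, so these ratios are no separate support. No ratio over all genes is given here, so neither median can be read against 1.

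The separated genes differed from the rest in the kind of site. The best peak was at a promoter (summit within 1 kb of a transcript start) for 60.6% of all genes tested, 58.5% of the stiff genes and 52.9% of the soft genes. Median GC content around the summit was 60.2%, 63.2% and 55.0% in the same order, and median gene length 30.7, 24.1 and 55.2 kb. Soft genes were thus longer, with more distal and more AT-rich best peaks. Among genes with a peak in all 8 libraries, the promoter share was 66.7% of all, 70.3% of stiff and 53.2% of soft genes.

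The AP-1 motif lay within 100 bases of the summit in 17.7% of all genes tested, in 20.05% of the stiff genes and in 28.3% of the soft genes. The TEAD motif was present in 13.1%, 19.8% and 15.0%, and the GC box in 39.8%, 43.4% and 30.4%, in that order. The AP-1 share was therefore highest on the soft side and the TEAD share on the stiff side. Within 50 bases the AP-1 shares were 11.3%, 15.3% and 17.5% and the TEAD shares 7.42%, 11.2% and 5.83%. With genes that had a peak in all 8 libraries, the AP-1 shares within 100 bases were 16.7%, 18.0% and 28.5%. Motifs of this length also differ in frequency with GC content and with the share of promoters, and the part of those in these shares was not tested.

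Stiff and soft genes were spread unevenly over the chromosomes. On chromosome 17, 48 of 1126 genes were stiff (4.26%) and 4 were soft (0.355%), and on chromosome 19, 48 of 1382 were stiff (3.47%) and 6 soft (0.434%). The opposite was seen on chromosome X, with 5 stiff (0.816%) and 17 soft (2.77%) of 613 genes, and on chromosome 12, with 18 stiff (1.88%) and 27 soft (2.81%) of 960. Chromosomes 17 and 19 are gene-dense and GC-rich, and their part in the GC content of the 2 lists was not tested.

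The libraries also differed in how rank varied with GC content. With genes in 20 bins of GC content, the median normal score of the 4 highest bins minus that of the 4 lowest was -0.320 and 0.0343 in D2 soft, -0.146 and -0.0676 in D4 soft, 0.0423 and -0.198 in D2 stiff and 0.280 and 0.212 in D4 stiff. The 2 D4 stiff libraries were the highest, while the D2 groups overlapped. After scores were centred within 20 bins of GC content in each library, 286 stiff and 224 soft genes were separated, of which 186 and 157 were in the lists above, and the median GC content of the 2 sets was 58.2% and 60.2%, against 65.2% and 55.7% for the same scores before centring. Centring takes the median score of each GC bin out of each library, so the loss of this contrast follows from the step and tests nothing.

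**Figure D3:**
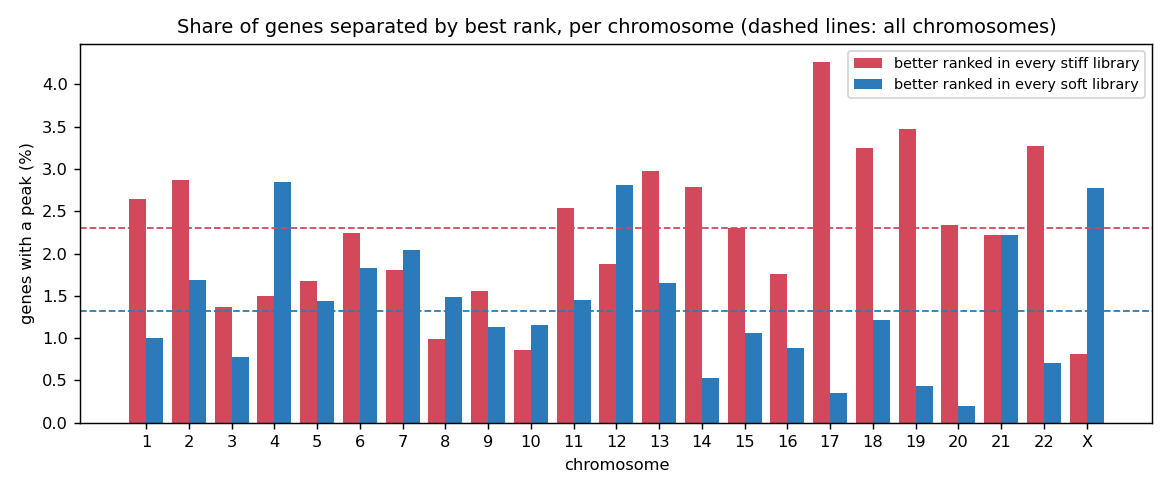
Percent of the genes tested on each chromosome that were separated by best rank, with stiff and soft genes as separate bars. Chromosome 17 holds 4.26% stiff and 0.355% soft genes, and chromosome X 0.816% and 2.77%.

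In the limma fit of rank scores across 13735 genes, 1 gene passed an adjusted p of 0.05 (0.00728% of genes, lower on the stiff matrix), and 870 had an unadjusted p under 0.05, of which 462 were higher on the stiff matrix. The gene was MIER3, of a family that binds histone deacetylases, with a difference of -2.18 (SE 0.366, adjusted p = 0.0332). Its ranks were 4251.5 and 4002 in D2 soft, 33649.5 and 4347 in D4 soft, 45134 and 46415.5 in D2 stiff and 37640 and 35870.5 in D4 stiff. The 2 D2 soft libraries and D4 soft replicate 2 stood ahead, and D4 soft replicate 1 was near the stiff libraries.

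The call rested on the edge of the window. The site is the promoter of the neighbouring SETD9 (chr5:56205047-56206371) and was listed in all 8 libraries, at ranks 4251.5 and 4002 in D2 soft, 2073.5 and 4347 in D4 soft, 3263 and 7367 in D2 stiff and 2762 and 4183 in D4 stiff. Its summit lay inside the MIER3 window in 3 soft libraries, by 356 to 688 bases, and outside it in the other 5, by 25 to 107 bases. At the site itself the groups overlapped, and no gene was called when any overlap of a peak with the window was counted. MIER3 was the only one of the 659 genes separated by rank where the summit of the gene's best site crossed the window edge in this way. Other sites of these genes were not followed. With any overlap counted, 414 of the 419 stiff genes and 237 of the 240 soft genes remained separated. No interaction of stiffness with day passed in limma for ranks (0 genes, with 1083 at an unadjusted p under 0.05), but 67 genes passed without D2 soft replicate 2 and 1 without D2 soft replicate 1.

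By number of peaks, 458 genes had more peaks in every stiff library than in any soft library (2.51%), and 0 genes had more in every soft library. In 415 of them (90.6%) the gap between the lowest stiff and the highest soft number was 1 peak, in 35 it was 2, in 7 it was 3 and in CTNNA1 it was 5. The mean number of peaks per gene was 2.24 and 3.88 in D2 soft, 4.05 and 3.74 in D4 soft, 5.66 and 5.83 in D2 stiff and 5.84 and 6.18 in D4 stiff. Over all genes tested it was 1.59 and 2.78, 3.05 and 2.74, 2.96 and 3.14, and 3.19 and 3.46 in the same order.

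The count of genes separated by number of peaks changed with the length of the lists. D4 soft replicate 1 had a longer list than D2 stiff replicate 1 (63272 against 59277 peaks). Its mean over the 458 genes was lower (4.05 against 5.66), which the choice of the genes fixes. Cutting the lists also drops their weaker peaks, so the part of list length alone was not tested. With each list cut to its best 29789 peaks, 64 genes had more peaks in every stiff library and 42 in every soft library, and 7 of the 458 were among the 64. These 7 were NPR1, a receptor for natriuretic peptides, ALDH3B1, an aldehyde dehydrogenase, ASIC2, RNF157, ZNF519, NDUFS7, a subunit of respiratory complex I, and HLCS, which attaches biotin to carboxylases. Without D2 soft replicate 1, 467 genes had more peaks on the stiff and 30 on the soft matrix. In limma with numbers scaled to the same total per library, 0 of 10302 genes passed, with 863 at an unadjusted p under 0.05, of which 530 were higher on the stiff matrix, and the interaction with day gave 0 genes, with 432 at an unadjusted p under 0.05. These counts of 0 depended on the libraries and lists used. With the D4 libraries alone 76 genes passed for stiffness (73 higher on the stiff matrix), and at equal list length 10 did. The interaction gave 257 genes without D2 soft replicate 2 and 54 at equal list length.

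CTNNA1, alpha-catenin, which links cadherin junctions to actin, had the widest gap in number. Its peaks numbered 6 and 12 in D2 soft, 11 and 11 in D4 soft, 17 and 18 in D2 stiff and 20 and 20 in D4 stiff. The lowest stiff library thus held 17 peaks and the highest soft library 12, with means of 18.8 ± 1.5 and 10 ± 2.71 (SD, n = 4 each). In limma the difference on the log2 scale of scaled numbers was 0.60 (SE 0.107, adjusted p = 0.373). Merged over libraries, the peaks made 32 sites, of which 4 were listed in all 8 libraries, 13 in stiff libraries alone and 3 in soft libraries alone. None of the 13 was listed in all 4 stiff libraries, and 7 were in a single library, so different sites made up the extra peaks. With lists of equal length the numbers were 6 and 6 in D2 soft, 7 and 4 in D4 soft, 6 and 6 in D2 stiff and 4 and 4 in D4 stiff.

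**Figure D4:**
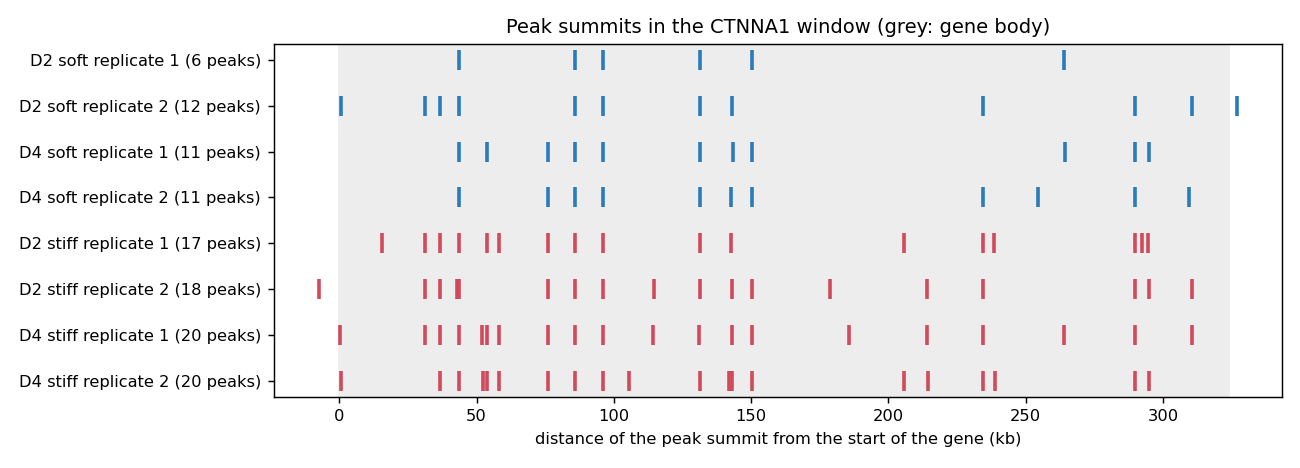
ATAC-seq peaks in the CTNNA1 window by library, with the distance of each summit from the start of the gene in kb on the horizontal axis, 1 row per library and the gene body shaded. The stiff rows hold 17 to 20 peaks and the soft rows 6 to 12, and 4 of the 32 merged sites are listed in every row.

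ASIC2, an acid-sensing ion channel of the degenerin family, had the highest numbers, at 18 and 29 in D2 soft, 37 and 31 in D4 soft, 40 and 40 in D2 stiff and 46 and 49 in D4 stiff. It was also separated by best rank, at 2207 and 2659.5 in D2 soft, 2030 and 3828.5 in D4 soft, 992 and 1326 in D2 stiff and 1456 and 1170 in D4 stiff. With equal list length it held 18 and 15 in D2 soft, 18 and 16 in D4 soft, 19 and 20 in D2 stiff and 20 and 21 in D4 stiff, so that the stiff libraries remained above the soft ones by 1 peak. Of its 60 merged sites, 12 were in all 8 libraries, 11 in stiff libraries alone and 5 in soft libraries alone, and 3 of the 11 were in all 4 stiff libraries.

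DNMT3A, which methylates DNA de novo, had few peaks on the soft matrix, at 1 and 3 in D2 soft, 3 and 3 in D4 soft, 6 and 8 in D2 stiff and 8 and 9 in D4 stiff. Of its 12 sites, 7 were in stiff libraries alone and none in soft libraries alone. It had the lowest adjusted p of the fit for numbers, at 0.114 in limma (difference 1.21 on the log2 scale, SE 0.168). With equal list length its numbers were 1 to 4 and the groups overlapped.

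The other genes of the widest gaps followed the same pattern. DST, dystonin, a linker of the cytoskeleton to adhesions, had 17 and 32 in D2 soft, 34 and 34 in D4 soft, 37 and 39 in D2 stiff and 41 and 42 in D4 stiff peaks. PALM2AKAP2, which includes an anchor of protein kinase A, had 15 and 23 in D2 soft, 30 and 29 in D4 soft, 33 and 38 in D2 stiff and 33 and 37 in D4 stiff. SH3RF3, a protein with SH3 and RING domains, had 9 and 22 in D2 soft, 23 and 19 in D4 soft, 26 and 28 in D2 stiff and 26 and 33 in D4 stiff. In these 3 genes D2 soft replicate 1 was the lowest, and the lowest stiff number lay 3 above the highest soft number. GABBR2, a subunit of the GABA-B receptor, had 12 and 16 in D2 soft, 17 and 15 in D4 soft, 20 and 20 in D2 stiff and 22 and 25 in D4 stiff, and MGLL, the lipase of monoacylglycerols, had 8 and 16 in D2 soft, 16 and 16 in D4 soft, 19 and 20 in D2 stiff and 21 and 23 in D4 stiff. In all 5 the groups overlapped at equal list length.

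**Figure D5:**
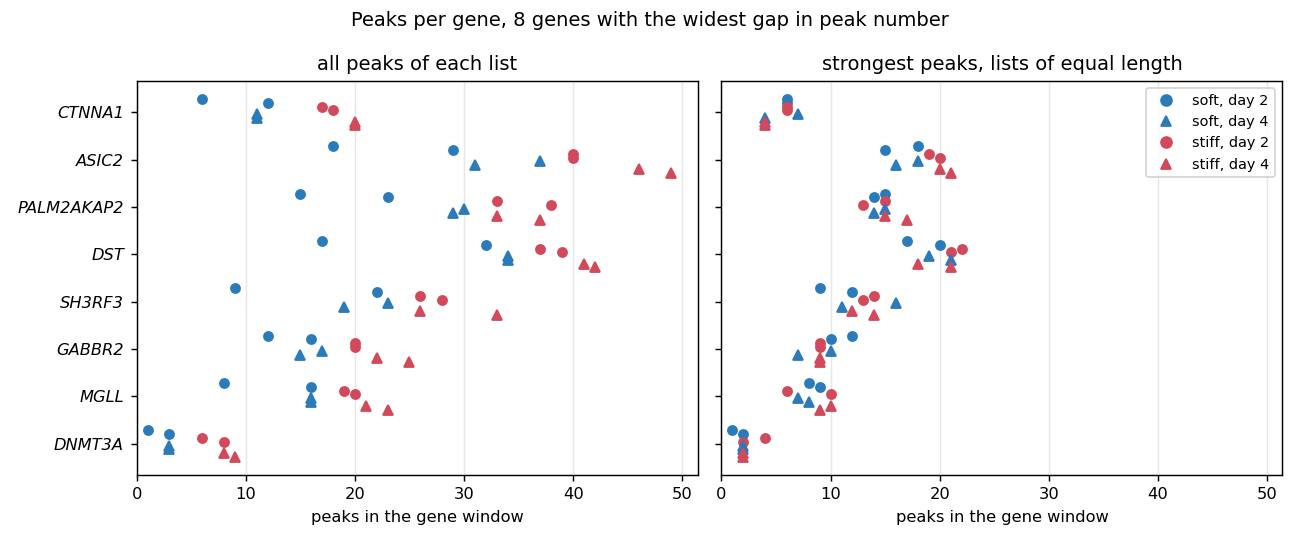
Number of peaks per library, with 1 point per library coloured by matrix and shaped by day, for the 8 genes with the widest gap in number, from all peaks on the left and from lists of equal length on the right. On the left, at CTNNA1 the stiff libraries hold 17 to 20 peaks and the soft libraries 6 to 12, and D2 soft replicate 1 is the lowest point of each gene.

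Both measures separated 47 genes, all on the stiff side (11.2% of the 419 and 10.3% of the 458). SMAD7, the inhibitory SMAD that turns off TGF-beta receptors, was one of them, with ranks 5373.5 and 5408 in D2 soft, 7953.5 and 4201 in D4 soft, 2269.5 and 1991 in D2 stiff and 3567 and 2001 in D4 stiff at its promoter and 4 and 8 in D2 soft, 8 and 5 in D4 soft, 9 and 9 in D2 stiff and 10 and 10 in D4 stiff peaks. With lists of equal length the peak numbers of SMAD7 overlapped, with means of 4.0 on the stiff and 4.75 on the soft matrix. In 7 genes the best rank was better on the soft matrix while the peaks were more numerous on the stiff matrix, such as LHFPL2, with ranks 983 and 579 in D2 soft, 550 and 411 in D4 soft, 1071.5 and 1074 in D2 stiff and 1228 and 1570.5 in D4 stiff and peaks 12 and 17 in D2 soft, 18 and 17 in D4 soft, 20 and 19 in D2 stiff and 20 and 19 in D4 stiff. LHFPL2 was chosen after its values were seen.

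Genes of the pathways named in the background were separated in small numbers. The genes came from 19 lists of mechanical signalling, matrix and stellate cell genes and from the list of genes the study names. Of 438 tested, 8 were separated by rank on the stiff side (1.83%), 8 on the soft side (1.83%) and 17 by number on the stiff side (3.88%), against 2.30%, 1.32% and 2.51% over all genes. Each list but the inflammatory cytokines held more peaks per gene on the stiff matrix than the 2.88 over all genes. The shares by number thus compare genes of unlike peak numbers. None of the 17 was among the 7 genes still separated by number with lists of equal length. In limma, 0 of them passed in either fit. Median differences in rank score over these lists ran from -0.218 for the genes the study names (15 of 17 fitted) to 0.190 for the 17 genes of collagen crosslinking. Inflammatory cytokines stood at -0.214 (17 of 22 genes fitted), and the median over all genes fitted was -0.00477.

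Among upstream signals, the AP-1 list had 0 of 18 factors separated by rank and 1 by number (BATF). JUN, the AP-1 subunit of that name, ranked 1350 and 1694 in D2 soft, 2273 and 518 in D4 soft, 1285 and 2001 in D2 stiff and 1879 and 2610 in D4 stiff, and the groups overlapped. FOSL1 and ATF3 overlapped likewise. Of 22 kinases and phosphatases upstream of AP-1, BRAF ranked better on the soft matrix, at 23840.5 and 24412 in D2 soft, 26919 and 20820.5 in D4 soft, 31285.5 and 28942 in D2 stiff and 28773 and 32177.5 in D4 stiff. It is a kinase at the head of the ERK cascade.

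Of 22 YAP targets, ARHGEF17, a guanine nucleotide exchange factor, had the widest gap of all the pathway genes (0.74), at ranks 11611.5 and 9576 in D2 soft, 10116 and 9966 in D4 soft, 3408 and 2861 in D2 stiff and 5735 and 3752.5 in D4 stiff. Its stiff ranks lay between 2861 and 5735 and its soft ranks between 9576 and 11611.5. FOXF2, a forkhead factor of mesenchyme, had no peak in 3 soft libraries and ranked 52641.5 in D4 soft replicate 2, against 32825 and 45630.5 in D2 stiff and 40744 and 45405 in D4 stiff. NT5E had more peaks in the stiff libraries by 1 or more. None of the 22 genes of the YAP, TEAD and Hippo list itself was separated by rank, and WWC1 (KIBRA) was by number.

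Adhesion genes were separated in both directions. PTK2, focal adhesion kinase, ranked 13392.5 and 12886 in D2 soft, 7998 and 9845 in D4 soft, 7622.5 and 3380.5 in D2 stiff and 7490 and 6761 in D4 stiff, ahead on the stiff matrix. ITGB3, the beta subunit of the vitronectin receptor, ranked 3557.5 and 3321 in D2 soft, 3186.5 and 4078 in D4 soft, 1354 and 3089 in D2 stiff and 2351.5 and 1822 in D4 stiff, with a gap of only 0.04. TES, an adhesion protein with LIM domains, was ahead on the soft matrix, at 5146.5 and 4220 in D2 soft, 7812 and 7029.5 in D4 soft, 9062.5 and 11987.5 in D2 stiff and 12000 and 11556 in D4 stiff. CTNNA1 and ITGB4 had more peaks on the stiff matrix. From the SRF and MRTF targets, CNN1 (calponin) had 2 and 4 in D2 soft, 4 and 2 in D4 soft, 5 and 5 in D2 stiff and 6 and 5 in D4 stiff peaks and FHL2 2 and 6 in D2 soft, 7 and 5 in D4 soft, 8 and 8 in D2 stiff and 8 and 8 in D4 stiff, while no member was separated by rank.

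Regulators of actin and stellate cell factors held a pair of soft genes with wide gaps. DIAPH2, a formin that builds actin filaments, ranked 7404.5 and 23071.5 in D2 soft, 24199 and 18646 in D4 soft, 41392 and 35110.5 in D2 stiff and 31256 and 38201.5 in D4 stiff at an intron site. PRRX1, a homeobox factor of mesenchyme, ranked 6179.5 and 15427 in D2 soft, 10023.5 and 20919 in D4 soft, 31664 and 29098.5 in D2 stiff and 32627 and 32427 in D4 stiff, a gap of 0.48. Both were separated under all 6 settings, though D2 soft replicate 1 was ahead of the other soft libraries in each.

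In the TGF-beta and BMP list of 34 genes, SMAD7 was ahead on the stiff matrix and BMP6 and SMURF1 on the soft matrix. BMP6, a ligand that in liver signals to hepatocytes for iron control, ranked 4644.5 and 4335 in D2 soft, 4255 and 3186 in D4 soft, 10803 and 6986.5 in D2 stiff and 8098 and 6000.5 in D4 stiff. SMURF1, a ubiquitin ligase for SMADs, ranked 13418 and 10442.5 in D2 soft, 11248 and 13736 in D4 soft, 16421 and 15298.5 in D2 stiff and 20463 and 24148 in D4 stiff. From growth factor signalling, the binding proteins IGFBP4 and IGFBP7 went opposite ways, with IGFBP7 at 3516.5 and 1879 in D2 soft, 3148 and 1210.5 in D4 soft, 4248 and 4162.5 in D2 stiff and 4393.5 and 6145.5 in D4 stiff. IGFBP4 had no peak in D2 soft replicate 1, ranked 28694 to 32242.5 in the other soft libraries and 17075.5 to 25674.5 in the stiff libraries. HBEGF had more peaks in the stiff libraries, but in 1 library a summit of one of its sites fell outside the window.

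Of the 22 collagens, 0 were separated by rank, and COL4A1 and COL15A1 had more peaks on the stiff matrix (9.09% against 2.51% of all genes), at 2 and 8 in D2 soft, 7 and 5 in D4 soft, 9 and 9 in D2 stiff and 10 and 10 in D4 stiff and 7 and 12 in D2 soft, 11 and 11 in D4 soft, 14 and 15 in D2 stiff and 13 and 15 in D4 stiff. With lists of equal length the groups overlapped at both, with stiff and soft means of 3.5 and 3.5 (COL4A1) and 8.25 and 7.75 (COL15A1). The collagens held a mean of 6.99 peaks per gene on the stiff matrix, against 2.88 over all genes. SDC1, the proteoglycan syndecan 1, was the only matrix glycoprotein or proteoglycan separated by rank, at 7709 and 5848 in D2 soft, 1556 and 1399 in D4 soft, 1064 and 1091 in D2 stiff and 1282 and 1301.5 in D4 stiff. No gene of the lists for collagen crosslinking, for matrix proteases and their inhibitors or for inflammatory cytokines was separated by either measure. In the cell cycle list, CDKN1A (p21) ranked 25541.5 and 17886 in D2 soft, 16114.5 and 15583.5 in D4 soft, 11206.5 and 9223.5 in D2 stiff and 13759 and 13818 in D4 stiff, ahead on the stiff matrix, MKI67 was ahead on the soft matrix by a gap of only 0.00495, and CDKN2A and CDKN2B, which share a locus, had 2 peaks in each soft library and 3 or 4 in each stiff library.

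None of the 17 genes singled out by the study was separated by either measure. COL1A1 ranked 456 and 940 in D2 soft, 266 and 160 in D4 soft, 387 and 601 in D2 stiff and 190 and 221 in D4 stiff, among the best peaks of each list. ACTA2, smooth muscle actin, ranked 4753.5 and 10141 in D2 soft, 4982.5 and 9107 in D4 soft, 9416.5 and 13478 in D2 stiff and 7621 and 6909.5 in D4 stiff. COL8A1, a network collagen, had 2 and 5 in D2 soft, 5 and 9 in D4 soft, 9 and 10 in D2 stiff and 11 and 15 in D4 stiff peaks, with D4 soft replicate 2 level with D2 stiff replicate 1.

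Examples follow from the 48 stiff genes present under all 6 settings. KCNJ2, the inward rectifier that sets the resting potential, ranked 24485 and 20036.5 in D2 soft, 10629 and 12624 in D4 soft, 8205.5 and 8439.5 in D2 stiff and 5892.5 and 7550 in D4 stiff at its promoter, with 1 peak in every library. RAD50, of the double-strand break sensor complex, ranked 10709.5 and 15464 in D2 soft, 9809 and 10981 in D4 soft, 2527.5 and 8359 in D2 stiff and 3161.5 and 6302.5 in D4 stiff. EZR, ezrin, which ties actin to the membrane, ranked 24932 and 26589 in D2 soft, 17407 and 26053.5 in D4 soft, 10288 and 12817.5 in D2 stiff and 16121.5 and 12608.5 in D4 stiff. These 3 and the genes of the next sentences were picked after their values were seen.

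From the 17 soft genes of that kind, NACA, a chaperone of nascent chains, ranked 1486.5 and 1997 in D2 soft, 2888 and 3226 in D4 soft, 6157.5 and 5524 in D2 stiff and 5536 and 4240 in D4 stiff at its promoter. CNOT9, of the deadenylase complex, ranked 2031.5 and 3272.5 in D2 soft, 1385 and 3282 in D4 soft, 4718.5 and 5124.5 in D2 stiff and 4852.5 and 5486 in D4 stiff. MICAL3, a monooxygenase that acts on actin, ranked 1311 and 3977.5 in D2 soft, 1369 and 2425 in D4 soft, 8916 and 9475.5 in D2 stiff and 5004 and 8871 in D4 stiff. EVL, an actin polymerase of the Ena/VASP family, ranked 5058 and 12720.5 in D2 soft, 8105 and 10330.5 in D4 soft, 14862.5 and 18150.5 in D2 stiff and 22336 and 21444.5 in D4 stiff. In all 4 the best stiff rank followed the worst soft rank by a gap of 0.22 to 0.52. That the groups were apart in both days follows from how the genes were picked.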

How the data were processed

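ATAC-seq peak lists of 8 LX-2 libraries were used (4 groups of 2). Per the labels and the study's methods, the authors trimmed reads with Trim Galore, mapped them to hg19 with Bowtie2 2.4.1, used Picard and bedtools 2.24.0, and called peaks per library with MACS2 at a q-value of 0.05, without pooling. Read filters and MACS2 options are not given in the sources used here. The deposited lists give a fold enrichment (ratio over local background), −log10 p-values and −log10 q-values, a score and a summit. Each value is relative to its own library's background, so deeper libraries list more and weaker peaks.

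Summits were assigned to GENCODE 44 genes (hg19 coordinates) with 10 kb on each side. Ranks by −log10 p (normal scores, genes with a peak in all libraries) and log2(peak number + 0.5) (scaled to 1 total, mean of at least 2 peaks) were fitted with limma 3.58.1 in R 4.3.3, with day as covariate and Benjamini-Hochberg adjustment. Motif shares are for the best peak over all libraries. Calculations used Python 3.11.15, numpy 2.4.6, pandas 2.3.3, scipy 1.17.1 and pysam 0.24.0 and were tested on simulated data. Named genes were the 10 per direction with the widest rank gap, the 5 best ranked in 1 matrix alone, the 8 widest in number, limma calls and separated members of lists. Genes, lists and tests were chosen with earlier results of these data known. Alternatives were equal list length, stricter q, any overlap, no flank, other rank scales, another pseudocount, single days, replicate block and leaving out libraries, with GC centring added after seeing the data. Replicate numbers did not pair libraries (correlation of deviations -0.0269 to 0.131 for ranks).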

Additional observations from a re-analysis of the deposited data

Results flagged for a closer look

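The values of a group of 4 libraries were checked for 1 library standing apart, by the gap of the highest or lowest library to its neighbour as a share of the group's range. Of 76 such groups, 10 passed the critical value at which chance gives about 1 in 20. In 6 of the 10 the library was D2 soft replicate 1, the shortest list. It was lowest for genes with a peak (share 0.877), for the peaks of CTNNA1 (0.833), DST (0.882), MGLL (1) and DNMT3A (1), and for the log2 best rank of CHRNA1 (0.886). In the shares of 1, the other 3 soft libraries were equal. On the stiff side, D4 stiff replicate 2 was lowest in log2 best rank at ARHGAP40 (0.871) and highest at PATE2 (0.846), and D2 stiff replicate 1 was highest at ESYT2 (0.912). D4 soft replicate 1 was highest at MIER3 (0.961), where the summit of the shared site lay outside the gene's window in that library.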

How the results depend on the processing

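Of 151 alternative values, 86 were classed as the same, 63 as moved and 2 became significant. For counts, the same meant a similar number of genes, whichever genes they were and in whichever direction limma called them. For differences between library means, it meant the same sign and the same side of the threshold, whatever the size. The difference of 1056 genes with a peak thus counted as the same at 118 with lists of equal length. By best rank, the stiff and soft genes were 315 and 391 ranked by fold enrichment, 1119 and 38 as percent of the list, 266 and 235 with a peak in all 8 libraries, and 250 and 252 by normal scores. Leaving out 1 library gave 633 to 883 stiff and 382 to 561 soft genes, a rise that follows from fewer orderings being required. Genes with more peaks were 64 (stiff) and 42 (soft) at equal list length and 272 and 4 without flank, and 467 to 1127 and 0 to 30 with 1 library left out (30 without D2 soft replicate 1). The rank fit in limma called 0 genes at equal list length, with any overlap, without flank and by fold enrichment, 5 with genes listed in at least 1 library (BMP8A, GSTP1, CPSF4L, SCGN and ENSG00000290217) and 6 on day 4 alone. It called 0 or 1 with 1 library left out: MIER3 without D4 soft replicate 1, GSTP1 without D2 soft replicate 2 and none without any of the other 6. The fit of peak numbers called 10 genes at equal list length, 1 with a pseudocount of 1 (DNMT3A), 28 without scaling (27 higher on stiff), 76 on day 4 alone (73 higher) and 0 with any library left out (0 to 0). The interaction with day gave 54 genes for numbers at equal list length and 3 for ranks without flank (MOB3A, ATF2 and DGAT1), and 0 to 67 (ranks) and 0 to 257 (numbers) with 1 library left out, the highest without D2 soft replicate 2. The replicate block left 1 rank call (MIER3, adjusted p = 0.0354) and 0 number calls, and the replicate numbers did not pair the libraries. Leaving out 1 library gave differences of 354 to 1372 genes with a peak and 0.299 to 0.740 peaks per gene, and without D4 soft replicate 1 the highest of these (1372 and 0.740) reached p = 0.0286, the smallest possible in an exact permutation test. With arrangements within days the permutation test gave p = 0.0556, the smallest that the 18 arrangements allow, so it could not pass the threshold. Within 50 bases, motif shares were 15.3% (stiff) and 17.5% (soft) for AP-1 and 11.2% and 5.83% for TEAD. The causes of these changes were not tested except where stated. The lists hold no read counts, so depth per site is unknown, a peak missing from a shorter list may be open below its threshold, and no change in signal can be told apart from a change in list length or background.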
